A study of Mus musculus with 15 samples.

Results

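The transcripts described here are those of the mouse mitochondrial genome, the small circular DNA kept inside mitochondria. They were taken as every gene of the deposited skin table that lies on chromosome MT. This rule uses no measured value, but the part was chosen with earlier results of these data known. This gave 37 of 54532 genes, namely 13 protein genes, 2 ribosomal RNAs (rRNAs) and 22 transfer RNAs (tRNAs). The study used mice with a conditional loss of Trpv3, which encodes a heat-activated cation channel of keratinocytes. MC903 (calcipotriol), a vitamin D analogue, sets off an inflammation of mouse skin that is used as a model of atopic dermatitis. Skin RNA was profiled in 4 groups of 3 libraries. These were untreated wild type, wild type given MC903 for 7 days, untreated Trpv3 knockout, and Trpv3 knockout given MC903 for 7 days. The deleted cell type, the Cre line, the strain and the age of the mice are not stated in the sources used here. The labels do not say whether replicates are different animals, so a p-value sets a difference only against the spread of these libraries, and that spread may be technical.

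The libraries held 16869716 to 18485698 reads on genes, and a single read on 1 kb of gene stood for 0.0496 to 0.0615 FPKM (fragments per kilobase of gene, scaled to library size). Trpv3 itself read 1.13 to 2.71 FPKM in untreated wild type skin and 2.62 to 3.64 in untreated skin labelled knockout. After MC903 it read 16.1 to 19.0 and 4.73 to 6.82, respectively. In limma the knockout label went with a log2 fold change of 0.61 ± 0.22 SE in untreated skin (adjusted p = 0.1) and of -1.45 ± 0.22 SE after MC903 (adjusted p = 0.00032), so the targeted gene was not lower in untreated skin. The knockout libraries are for this reason called labelled knockout throughout. The labelled tissue was checked on 8 basal and 8 suprabasal keratinocyte markers, none of which was at 0 in any group. A skin library mixes many cell types, so fewer cells of a type and less RNA per cell cannot be told apart in any result below.

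Mitochondrial DNA is copied into RNA as long transcripts that span many genes on either strand. tRNA genes lie between most of the protein and rRNA genes, and the tRNAs are cut out by RNase P and the RNase Z enzyme ELAC2, which frees the RNAs on both sides. The protein genes encode core subunits of respiratory complexes I, III and IV and of the ATP synthase, complex V, while all other subunits come from the nucleus. The promoter of the strand that carries most genes lies just before the rRNA genes. Most mitochondrial mRNAs receive a poly-A tail, which also completes stop codons that the DNA leaves unfinished. Libraries made on poly-T beads, as here, therefore read the tailed part of these RNAs, and a change in amount cannot be told apart from a change in tailing. In the annotation 9 of the 37 genes, mt-Nd6 and 8 tRNAs, lie on the minus strand. The counting is not stated to have used strand, so reads of a gene and of RNA from the opposite strand cannot be told apart.

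Sequences are shown first where they bear on how a level can be read. They come from the GENCODE M21 transcripts of the mm10 build, whose coordinates were the same as in the deposited table for all 37 genes. Stretches of the mitochondrial genome also lie in the nuclear genome, and 7 annotated pseudogenes on the minus strand of chr1:24611535-24616197 carry the block from mt-Co1 to mt-Nd4. Between mt-Nd3 and its copy Gm28438 there was 1 difference over 345 aligned bases, T3C, and between mt-Co1 and its copy Gm29216 there was 1 over 483, A1066T (the mitochondrial base, the position from 1 at the 5′ end of the mitochondrial gene, and the base of the copy). No difference was found between mt-Co2, mt-Atp6, mt-Co3, mt-Nd4l or mt-Nd4 and the copies Gm28661, Gm10925, Gm28437, Gm10222 and Gm28439 over the aligned bases. The differing base is in capitals.
mt-Nd3: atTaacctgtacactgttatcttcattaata
Gm28438: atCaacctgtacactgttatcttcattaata
mt-Co1: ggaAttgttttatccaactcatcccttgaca
Gm29216: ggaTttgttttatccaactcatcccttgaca
Within the aligned bases, a read that covers neither position matches the mitochondrial gene and its copy equally well. For mt-Co1 these are only its positions 1063 to 1545.

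Neighbouring genes also share bases. The last 43 bases of mt-Atp8 are the beginning of mt-Atp6, whose start codon is in capitals, and mt-Nd4l and mt-Nd4 share 7 bases.
mt-Atp8 and mt-Atp6: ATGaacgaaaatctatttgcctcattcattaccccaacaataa
The coding sequences of mt-Co3, mt-Nd4 and mt-Cytb end in a lone T, in capitals in their last 24 bases, which the tail turns into a full stop codon.
mt-Co3: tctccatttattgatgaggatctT
mt-Nd4: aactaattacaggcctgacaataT
mt-Cytb: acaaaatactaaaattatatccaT

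The tRNA genes on which the tRNA results turn are shown as RNA-sense DNA with the anticodon in capitals. These carry proline (mt-Tp), cysteine (mt-Tc), glutamate (mt-Te), a leucine (mt-Tl1) and asparagine (mt-Tn).
mt-Tp: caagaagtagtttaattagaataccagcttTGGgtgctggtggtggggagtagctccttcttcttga
mt-Tc: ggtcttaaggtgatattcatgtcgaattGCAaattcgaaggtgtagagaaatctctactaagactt
mt-Te: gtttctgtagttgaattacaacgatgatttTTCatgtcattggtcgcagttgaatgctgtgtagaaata
mt-Tl1: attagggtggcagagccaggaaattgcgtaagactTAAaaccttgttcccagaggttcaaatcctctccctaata
mt-Tn: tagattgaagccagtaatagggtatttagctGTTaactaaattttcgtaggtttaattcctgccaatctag
The 22 tRNA genes are 59 to 75 bases long, whereas the labels give fragments of 370 to 420 bp selected for the libraries. Reads on a tRNA gene therefore cannot be told apart from reads of longer RNAs that hold it, and they are reported as reads on tRNA genes.

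The 13 protein genes fell into a high and a low set, and the low set was nearly the one with full-length nuclear copies. Over the 12 libraries mt-Co1 had a mean of 7718 FPKM, mt-Nd1 4752, mt-Cytb 4467, mt-Nd2 2176, mt-Nd6 1796, mt-Nd4 1594 and mt-Nd5 1546. The other 6 were far lower, with mt-Co2 at 87.5, mt-Atp6 at 81.6, mt-Co3 at 62.6, mt-Nd3 at 38.2, mt-Nd4l at 16.7 and mt-Atp8 at 1.09. FPKM is a level per length, but the fragments selected (370 to 420 bp) are longer than mt-Atp8 (204 bases), mt-Nd4l (297) and mt-Nd3 (348). The levels of these short genes can therefore not be set side by side with those of longer genes. The part of length in them was not tested. Of all 100-base windows of a gene, 97.6% to 99.9% had an exact copy in a transcript outside the mitochondrial genome for mt-Nd3, mt-Nd4l, mt-Atp6, mt-Co2 and mt-Co3. The share was 60.8% for mt-Nd4, 30.8% for mt-Co1, 3.19% for mt-Nd2 and 0 for mt-Nd1, mt-Nd5, mt-Nd6 and mt-Cytb. It was also 0 for mt-Atp8, for which no annotated copy was found. The copies before and after its place keep the same distance from their genes (chromosome 1 position plus mitochondrial position 24622578 from mt-Co1 to mt-Nd3), so the chromosome 1 block runs through it. The copies had reads as well, with a mean of 106 FPKM for Gm28661, 63.4 for Gm10925, 43.8 for Gm29216, 29.0 for Gm28437, 11.6 for Gm28439, 9.25 for Gm10222 and 8.31 for Gm28438. The sources used here do not say how reads matching several places were counted, and the part of this in the levels was not tested. This division was seen after the values were known. The levels of the genes with copies, mt-Nd4 and mt-Co1 in part and the 5 low genes in full, are therefore uncertain.

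**Figure D1:**
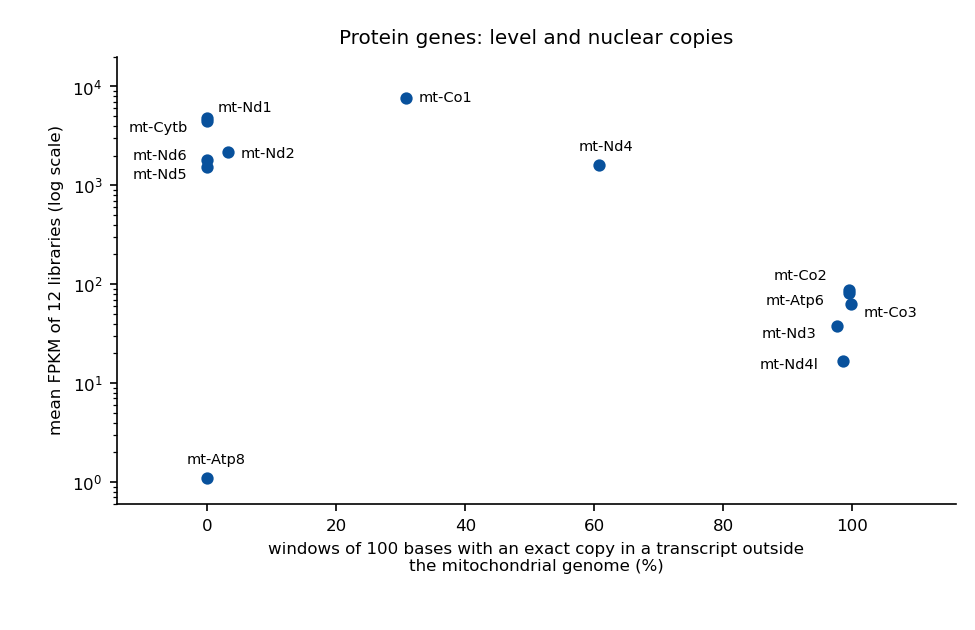
Mean FPKM over 12 skin libraries (vertical axis, log scale) of the 13 mitochondrial protein genes against the share of their 100-base windows with an exact copy in an annotated transcript outside the mitochondrial genome (horizontal axis, percent). The 5 genes at 97.6% or more lie between 16.7 and 87.5 FPKM and the 7 genes at 60.8% or less lie at 1546 FPKM or more, apart from mt-Atp8 at 1.09.

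As a class, the protein genes took 12.6%, 14.8% and 9.57% of the summed FPKM in untreated wild type skin. After MC903 they took 3.68%, 4.48% and 4.35% in wild type skin. The share was 6.35%, 6.11% and 5.87% in untreated skin labelled knockout and 6.42%, 6.35% and 6.49% after MC903. Untreated wild type skin thus lay above the other 3 groups without overlap, and replicate 3 was its lowest library. The 2 rRNAs moved otherwise. Their share was 0.287% ± 0.0578 (SD, n = 3) in untreated and 0.469% ± 0.115 in MC903-treated wild type skin, and 0.166% ± 0.0219 and 0.768% ± 0.0313 in skin labelled knockout. The tRNA genes took 0.450% ± 0.141 and 0.222% ± 0.0204 in wild type skin, and 0.261% ± 0.0243 and 0.390% ± 0.0290 in skin labelled knockout, in the same order.

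Among the complex I genes of the high set, mt-Nd1 (ENSMUSG00000064341, MT 2751 to 3707) read 6929.8, 7481 and 5261 in untreated wild type skin, 3677, 4102 and 4689 in wild type skin after MC903, 3336, 3167 and 3325 in untreated skin labelled knockout and 5154, 5154 and 4752 in skin labelled knockout after MC903. mt-Nd2 (ENSMUSG00000064345, MT 3914 to 4951) read 3789, 4464 and 3099 in untreated wild type skin, 1341, 1592 and 1761 in wild type skin after MC903, 1714, 1541 and 1385 in untreated skin labelled knockout and 1788, 1740.0 and 1898 in skin labelled knockout after MC903. mt-Nd4 (ENSMUSG00000064363, MT 10167 to 11544) read 2683, 3056 and 2189 in untreated wild type skin, 1001, 1231 and 1384 in wild type skin after MC903, 1321, 1246 and 989 in untreated skin labelled knockout and 1357, 1306 and 1369.7 in skin labelled knockout after MC903. In these 3 genes every untreated wild type library lay above every other library. mt-Nd5 (ENSMUSG00000064367, MT 11742 to 13565) read 2653, 3075 and 2179.9 in untreated wild type skin, 711, 903 and 871 in wild type skin after MC903, 1366, 1257 and 1251 in untreated skin labelled knockout and 1432, 1407 and 1448 in skin labelled knockout after MC903. mt-Nd6 (ENSMUSG00000064368, MT 13552 to 14070, minus strand) read 2779.8, 3349 and 2535 in untreated wild type skin, 1384, 1468 and 1634 in wild type skin after MC903, 1323, 1226 and 1505 in untreated skin labelled knockout and 1511, 1407 and 1432 in skin labelled knockout after MC903. Untreated wild type skin was again highest in both. In mt-Nd5 the wild type libraries treated with MC903 were lower than all others, whereas in mt-Nd6 they overlapped both knockout-labelled groups.

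Complex III has a single subunit from this genome, mt-Cytb, and complex IV, cytochrome c oxidase, has its 3 core subunits from it. mt-Cytb (ENSMUSG00000064370, MT 14145 to 15288) read 7268, 8412 and 5849 in untreated wild type skin, 2868, 3334 and 3615 in wild type skin after MC903, 3710.2, 3542 and 3364 in untreated skin labelled knockout and 3749, 3759.8 and 4129 in skin labelled knockout after MC903. mt-Co1 (ENSMUSG00000064351, MT 5328 to 6872) read 12139, 14048 and 9632 in untreated wild type skin, 4524, 5587 and 5619 in wild type skin after MC903, 6486, 6319 and 6361 in untreated skin labelled knockout and 7119, 7276 and 7510.4 in skin labelled knockout after MC903. In mt-Co1, which encodes the catalytic subunit, the groups did not overlap in any of the 4 comparisons of groups that follow. mt-Co2 (ENSMUSG00000064354, MT 7013 to 7696) read 115, 129 and 128 in untreated wild type skin, 96.7, 81.5 and 92.8 in wild type skin after MC903, 64.8, 58.5 and 58.8 in untreated skin labelled knockout and 73.9, 76.5 and 73.7 in skin labelled knockout after MC903. mt-Co3 (ENSMUSG00000064358, MT 8607 to 9390) read 74.3, 81.7 and 60.3 in untreated wild type skin, 31.5, 34.0 and 39.7 in wild type skin after MC903, 30.5, 36.0 and 38.4 in untreated skin labelled knockout and 52.7, 225 and 46.7 in skin labelled knockout after MC903. Replicate 2 of the knockout-labelled MC903 group stood far above every other library in mt-Co3, with 3192 reads where the others held 413 to 1292. The copy Gm28437 read 32.5, 29.8 and 28.9 in that group.

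The remaining low genes were read with few reads or a wide spread. mt-Nd3 (ENSMUSG00000064360, MT 9459 to 9806) read 38.8, 52.9 and 38.6 in untreated wild type skin, 35.4, 36.2 and 63.2 in wild type skin after MC903, 27.5, 25.5 and 33.3 in untreated skin labelled knockout and 24.5, 37.7 and 44.6 in skin labelled knockout after MC903. mt-Nd4l (ENSMUSG00000065947, MT 9877 to 10173) read 25.9, 25.4 and 22.0 in untreated wild type skin, 8.86, 12.4 and 16.8 in wild type skin after MC903, 17.1, 14.1 and 11.03 in untreated skin labelled knockout and 14.7, 15.8 and 16.7 in skin labelled knockout after MC903. Both encode subunits of complex I. mt-Atp6 (ENSMUSG00000064357, MT 7927 to 8607), a subunit of the proton channel of complex V, read 115, 98.3 and 123 in untreated wild type skin, 182, 35.8 and 55.4 in wild type skin after MC903, 58.6, 44.1 and 39.4 in untreated skin labelled knockout and 53.3, 126 and 47.6 in skin labelled knockout after MC903. Replicate 1 of the wild type MC903 group and replicate 2 of the knockout-labelled MC903 group were the highest libraries of their groups in mt-Atp6. Each was more than the sum of the other replicates of its group. The copy Gm10925 read 43.6, 39.1 and 43.8 in the wild type and 70.4, 57.4 and 53.6 in the knockout-labelled MC903 group. mt-Atp8 (ENSMUSG00000064356, MT 7766 to 7969), the small partner of mt-Atp6, read 0.985, 0.729 and 2.31 in untreated wild type skin, 2.64, 0.301 and 1.17 in wild type skin after MC903, 1.25, 0.514 and 0.526 in untreated skin labelled knockout and 1.08, 0.271 and 1.32 in skin labelled knockout after MC903. These were 1 to 9 reads per library, and the groups overlapped throughout.

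**Figure D2:**
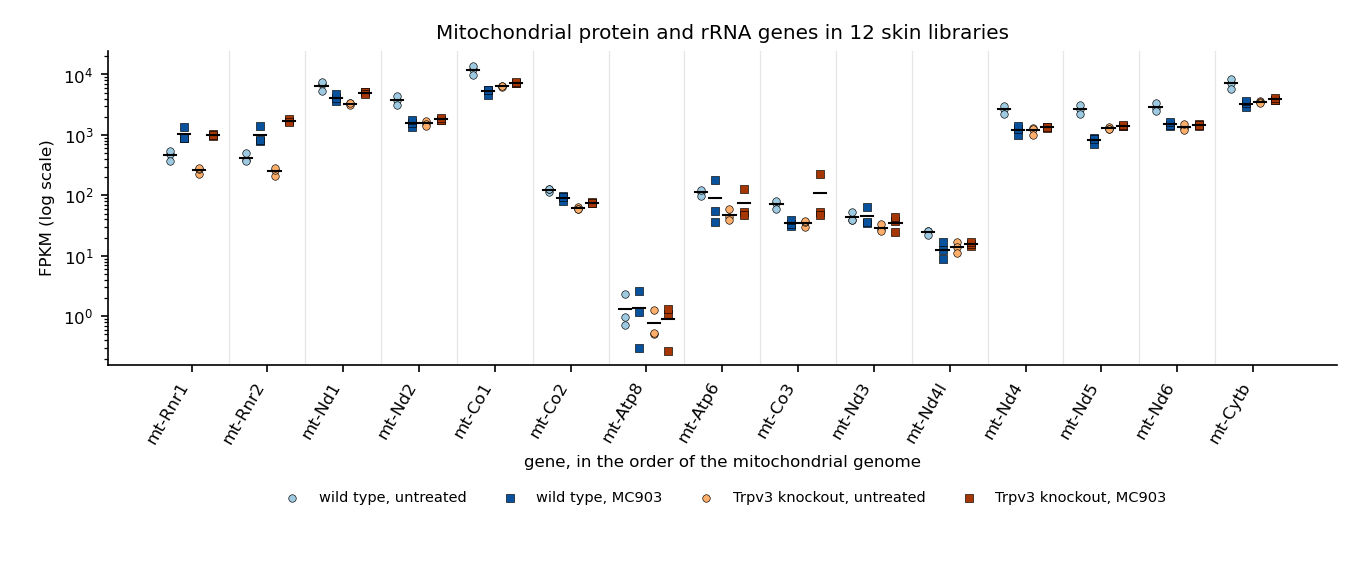
FPKM (vertical axis, log scale) of the 2 rRNA and 13 protein genes in the order of the mitochondrial genome, with 1 symbol per library and a bar at the mean of 3. In the high protein genes the untreated wild type libraries are on top, in the rRNA genes the MC903-treated libraries of both genotypes are, and mt-Co3 and mt-Atp6 show single libraries far from their group.

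The first comparison asked what MC903 does in wild type skin. Of the 13 protein genes 9 fell and none rose, whereas both rRNAs rose. Among the 9, mt-Co2 and mt-Nd4l in full and mt-Nd4 and mt-Co1 in part have nuclear copies, so their levels are uncertain. The falls ranged from mt-Nd5, which was 3.18-fold lower (log2 fold change of -1.66 ± 0.16 SE, limma adjusted p = 4.1e-06), to mt-Co2, which was 1.38-fold lower (log2 fold change of -0.46 ± 0.09 SE, limma adjusted p = 0.00073). Between them lay mt-Nd2 (2.42-fold lower, log2 fold change of -1.27 ± 0.18 SE, limma adjusted p = 8.1e-05), mt-Co1 (2.28-fold lower, log2 fold change of -1.18 ± 0.21 SE, limma adjusted p = 0.00053) and mt-Cytb (2.19-fold lower, log2 fold change of -1.12 ± 0.19 SE, limma adjusted p = 0.00033). The log2 fold change was -1.13 for mt-Nd4, -0.96 for mt-Nd4l, -0.94 for mt-Nd6 and -0.65 for mt-Nd1, with limma adjusted p-values of 0.00021, 0.0016, 0.00024 and 0.012. The 4 protein genes that did not pass were mt-Co3 (log2 fold change of -1.02 ± 0.46 SE, limma adjusted p = 0.07), mt-Atp6 (-0.64), mt-Atp8 (-0.10) and mt-Nd3 (0.01). The median log2 fold change was -0.96 over the 13 protein genes and 0.02 over all genes. The background was large, since 63% of the 17646 genes tested passed, 30.3% as lower and 32.6% as higher. The groups did not overlap, with MC903 lower, in 10 of 13 protein genes, against 31.1% of all genes tested (64.1% in either direction).

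Leaving out any library kept the 9 calls, and 2 protein genes passed in addition when 1 library was left out. mt-Atp6 read -1.32, limma adjusted p = 0.011 without replicate 1 of the wild type MC903 group. mt-Co3 passed without replicate 2 (-1.02, limma adjusted p = 0.00011) or replicate 3 (limma adjusted p = 0.047) of the knockout-labelled MC903 group, since all 12 libraries share 1 estimate of the spread. With no filter on low values mt-Co1, mt-Cytb and mt-Nd1 no longer passed (limma adjusted p = 0.33, 0.15 and 0.45), and mt-Nd1 did not when only the wild type libraries were fitted (0.13).

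In skin labelled knockout the protein genes behaved otherwise under MC903. None of 13 fell and 3 passed as higher, against 25% of all genes tested that passed as higher, 23% as lower and 47.9% in either direction. These were mt-Nd1 (1.53-fold higher, log2 fold change of 0.61 ± 0.19 SE, limma adjusted p = 0.021), mt-Co2 (1.23-fold higher, log2 fold change of 0.30 ± 0.09 SE, limma adjusted p = 0.015) and mt-Co3 (log2 fold change of 1.23 ± 0.46 SE, limma adjusted p = 0.044). Of these, mt-Co2 and mt-Co3 have nuclear copies in full, so their levels are uncertain. The median log2 fold change was 0.19 over the protein genes and -0.00 over all genes. The groups did not overlap in 7 of 13 protein genes, each with MC903 higher, against 32% of all genes tested. Among them mt-Co1, at 6389 ± 86.8 untreated and 7302 ± 197 after MC903 (mean ± SD, n = 3), had a log2 fold change of 0.19 ± 0.21 SE, limma adjusted p = 0.48. The other 9 log2 fold changes ran from 0.10 in mt-Atp8 to 0.54 in mt-Atp6.

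The 3 calls in skin labelled knockout depended on single libraries. None of the 13 protein genes passed without replicate 2 or without replicate 3 of the untreated knockout-labelled group, and 1 passed without replicate 1 of that group or without replicate 2 of its MC903 group. Without the latter library mt-Co3 read 0.50, limma adjusted p = 0.026, mt-Nd1 0.60, limma adjusted p = 0.065, and mt-Co2 0.28, limma adjusted p = 0.053. mt-Co2 also missed the threshold without untreated replicate 2 or 3 (limma adjusted p = 0.056 and 0.053), and mt-Nd1 without any untreated knockout-labelled library or MC903 replicate 1 (0.055 to 0.068). mt-Co3 did so without wild type untreated replicate 1 or 2, any wild type MC903 library or any untreated knockout-labelled library (0.053 to 0.11). When libraries were scaled to TPM, where all genes of a library sum to the same total, or by the genes outside the mitochondrial genome, 0 of 13 passed.

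Untreated skin of the 2 genotypes differed in the protein genes as well. Of 13, 9 were lower in skin labelled knockout and none was higher, against 4.55% of all genes tested that passed as lower, 7.15% as higher and 11.7% in either direction. mt-Nd2 was 2.45-fold lower (log2 fold change of -1.28 ± 0.18 SE, limma adjusted p = 0.0022), mt-Nd4 2.23-fold (log2 fold change of -1.15 ± 0.18 SE, limma adjusted p = 0.004) and mt-Nd6 2.14-fold (log2 fold change of -1.09 ± 0.15 SE, limma adjusted p = 0.0023). mt-Co2 was 2.05-fold lower (log2 fold change of -1.03 ± 0.09 SE, limma adjusted p = 0.00037), mt-Cytb 2.03-fold (log2 fold change of -1.01 ± 0.19 SE, limma adjusted p = 0.0088) and mt-Nd5 2.04-fold (log2 fold change of -1.02 ± 0.16 SE, limma adjusted p = 0.0036). The log2 fold change was -0.99 in mt-Nd1, -0.89 in mt-Co1 and -0.79 in mt-Nd4l (limma adjusted p = 0.01, 0.023 and 0.03). Of the 9, mt-Co2 and mt-Nd4l in full and mt-Nd4 and mt-Co1 in part have nuclear copies, which leaves their levels uncertain. mt-Atp6, mt-Co3, mt-Nd3 and mt-Atp8 did not pass, with -1.25, -1.03, -0.58 and -0.50. In 12 of 13 protein genes every untreated knockout-labelled library lay below every untreated wild type library, against 14.2% of all genes tested, and mt-Atp8 was the exception. The median was -1.02 over the protein genes and 0.01 over all genes.

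These calls leaned on the spread shared by all 12 libraries. When only the untreated libraries were fitted 3 of 13 passed, mt-Co2, mt-Atp6 and mt-Co3, all as lower, and the other 8 of the 9 did not (limma adjusted p = 0.054 to 0.25). These 3 genes have nuclear copies in full (99.5% to 99.9% of windows), so their levels are uncertain. No protein gene without full copies passed in that fit. With no filter on low values mt-Co2 alone passed. mt-Co1 no longer passed without any single untreated library other than wild type replicate 3 (limma adjusted p = 0.057, 0.06, 0.077, 0.086 and 0.074 without wild type replicates 1 and 2 and knockout-labelled replicates 1, 2 and 3). mt-Nd4l no longer passed without wild type replicate 1 or 2 or knockout-labelled replicate 2 or 3 (0.08, 0.083, 0.087 and 0.1), and mt-Nd1 without knockout-labelled replicate 2 (0.05). mt-Atp6 passed in addition without wild type MC903 replicate 1 (0.04), and mt-Co3 without knockout-labelled MC903 replicate 2 (0.0035). This comparison and the wild type MC903 comparison share the untreated wild type libraries, so their values are given side by side and not compared.

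After MC903 the genotypes were closer. Of 13 protein genes 2 were higher and 1 was lower in skin labelled knockout, against 25.9% of all genes tested that passed as higher and 26.1% as lower (52.1% in either direction). mt-Nd5 was 1.72-fold higher (log2 fold change of 0.79 ± 0.16 SE, limma adjusted p = 0.0015), and mt-Co3 was higher with replicate 2 far above the rest (log2 fold change of 1.22 ± 0.46 SE, limma adjusted p = 0.042). mt-Co2 was 1.21-fold lower (log2 fold change of -0.27 ± 0.09 SE, limma adjusted p = 0.022), a sign that turned when libraries were scaled to TPM (0.03, limma adjusted p = 0.8) or by the genes outside the mitochondrial genome (0.07, limma adjusted p = 0.54). Both mt-Co2 and mt-Co3 have nuclear copies in full, so their levels are uncertain. The remaining 10 lay between -0.32 in mt-Nd3 and 0.48 in mt-Co1 (log2 fold change of 0.48 ± 0.21 SE, limma adjusted p = 0.075). The median was 0.22 over the protein genes and -0.03 over all genes. The groups did not overlap in 6, mt-Co1, mt-Nd1, mt-Cytb, mt-Nd5 and mt-Co3 with knockout-labelled skin higher and mt-Co2 with it lower, against 31% and 31.7% of all genes tested.

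The mt-Nd5 call held on leaving out any single library, and those of mt-Co2 and mt-Co3 did not. mt-Co2 no longer passed without wild type MC903 replicate 1 or 3 (limma adjusted p = 0.086 and 0.064) or without knockout-labelled MC903 replicate 1 or 3 (0.062 and 0.059). mt-Co3 missed the threshold without wild type untreated replicate 1, any wild type MC903 library or any untreated knockout-labelled library (0.053 to 0.1). Without wild type MC903 replicate 1 only mt-Nd5 of the 13 passed. mt-Co1 passed without wild type untreated replicate 3 (0.037) and mt-Nd4l without wild type MC903 replicate 3 (0.028). On the 2 scalings just named, 7 and 8 of 13 protein genes passed, all as higher, mt-Co1 among them (0.78 and 0.83, limma adjusted p = 0.006 and 0.0055).

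A test of the difference itself asked whether MC903 acted unequally in the genotypes. For 10 of 13 protein genes the response in skin labelled knockout was the higher, and for none the lower, against 20% of all genes tested in that direction, 19.7% in the other and 39.7% in either. The difference equals the genotype change after MC903 minus that in untreated skin, so it is not independent of those comparisons. These 2 changes were 0.22 and -1.28 in mt-Nd2 and -0.04 and -1.09 in mt-Nd6. mt-Nd5 had a difference of 1.81 ± 0.22 SE on the log2 scale (limma adjusted p = 0.00019) and mt-Nd2 one of 1.497 ± 0.25 SE (limma adjusted p = 0.001). It was 1.37 for mt-Co1, 1.32 for mt-Nd4, 1.26 for mt-Nd1, 1.26 for mt-Cytb, 1.13 for mt-Nd4l and 1.05 for mt-Nd6 (limma adjusted p = 0.0045, 0.0022, 0.0041, 0.0039, 0.0097 and 0.0031). mt-Co2 had 0.76 ± 0.12 SE (limma adjusted p = 0.00083). mt-Co3 had 2.25 ± 0.64 SE (limma adjusted p = 0.017), which moved to 1.53, limma adjusted p = 0.00067 without knockout-labelled MC903 replicate 2. Of the 10, mt-Co2, mt-Co3 and mt-Nd4l in full and mt-Nd4 and mt-Co1 in part have nuclear copies, so their levels are uncertain. mt-Atp6, mt-Nd3 and mt-Atp8 did not pass, with 1.19, 0.26 and 0.19, and mt-Atp6 passed without wild type MC903 replicate 1 (1.86, limma adjusted p = 0.018). With no filter on low values mt-Co1, mt-Cytb, mt-Nd1 and mt-Nd6 no longer passed (limma adjusted p = 0.53, 0.34, 0.37 and 0.11).

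**Figure D3:**
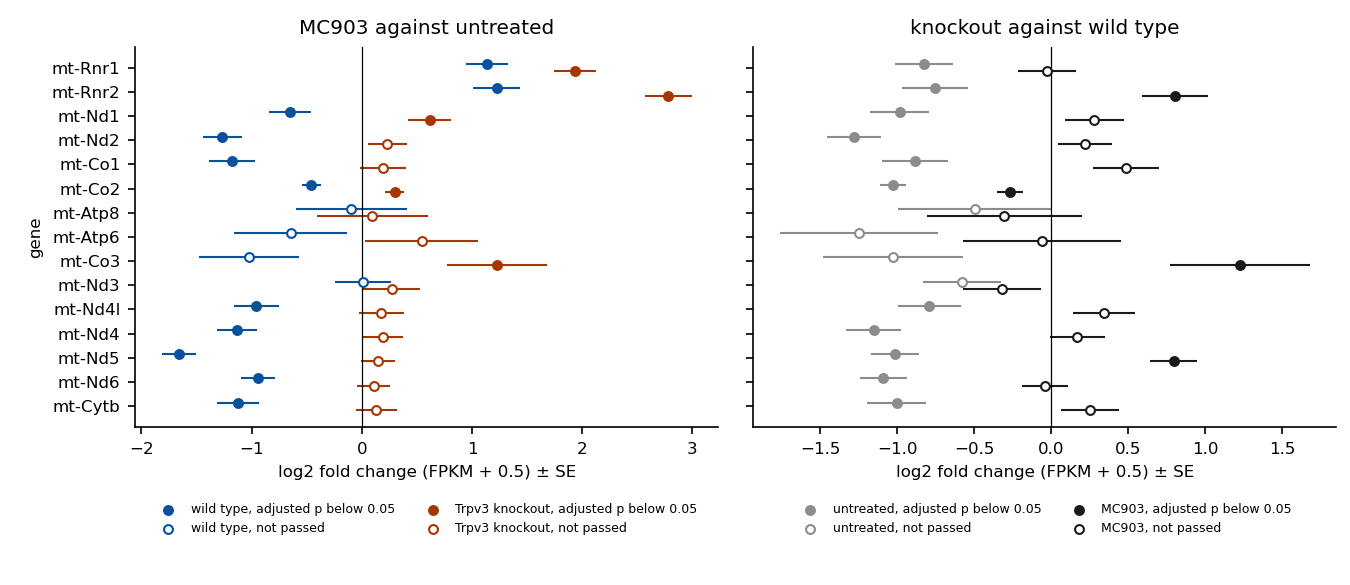
Log2 fold changes on the log2(FPKM + 0.5) scale ± SE from limma for the 2 rRNA and 13 protein genes, MC903 against untreated in each genotype (left) and knockout against wild type at each treatment (right), with filled symbols where the adjusted p is below 0.05. In wild type skin 12 of the 13 protein genes lie left of 0 (mt-Nd3 is at 0.01) and the rRNAs right of it under MC903, in untreated skin the knockout-labelled libraries lie left of 0 in each gene, and mt-Co2, left of 0 between genotypes after MC903, changed sign on 2 other scalings.

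The 2 rRNAs are the RNA parts of the mitochondrial ribosome, mt-Rnr1 of its small and mt-Rnr2 of its large subunit. Their genes lie next to each other after the promoter, with the tRNA gene mt-Tv between them. mt-Rnr1 (ENSMUSG00000064337, MT 70 to 1024) read 482, 535 and 376 in untreated wild type skin, 879.8, 879 and 1337 in wild type skin after MC903, 222, 275 and 284 in untreated skin labelled knockout and 966, 1029 and 981 in skin labelled knockout after MC903. mt-Rnr2 (ENSMUSG00000064339, MT 1094 to 2675) read 391, 498 and 374 in untreated wild type skin, 803, 825 and 1404 in wild type skin after MC903, 209, 259 and 279 in untreated skin labelled knockout and 1668, 1823 and 1627 in skin labelled knockout after MC903. In each genotype every MC903 library lay above every untreated library for both rRNAs, and no 100-base window of either had an exact copy outside the mitochondrial genome.

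Under MC903 mt-Rnr1 rose 2.22-fold in wild type skin (log2 fold change of 1.14 ± 0.19 SE, limma adjusted p = 0.00029) and 3.81-fold in skin labelled knockout (log2 fold change of 1.93 ± 0.19 SE, limma adjusted p = 1.6e-05). mt-Rnr2 rose 2.40-fold (log2 fold change of 1.22 ± 0.21 SE, limma adjusted p = 0.00042) and 6.85-fold (log2 fold change of 2.78 ± 0.21 SE, limma adjusted p = 3.2e-06). The difference between the 2 responses was 1.56 ± 0.30 SE for mt-Rnr2 (limma adjusted p = 0.0023) and 0.80 ± 0.27 SE for mt-Rnr1 (limma adjusted p = 0.034). The call on mt-Rnr1 ended on leaving out any single library other than wild type untreated replicate 3, wild type MC903 replicate 3 or knockout-labelled untreated replicate 3, with values from 0.69 to 0.84 and adjusted p from 0.053 to 0.086, and it missed the threshold with no filter (0.1).

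Signs of RNA type moved with the rRNAs in wild type skin. On poly-T beads, RNAs with short or no tails are read poorly. Of 8 RNAs without a poly-A tail only Rn7sk and Terc were tested. Both rose under MC903 in wild type skin, where 32.6% of all genes tested rose. The summed FPKM of the 8 was 0.948 to 2.73 in untreated and 6.15, 7.23 and 17.7 in MC903-treated wild type skin. These sums rest on few genes, since 6 of the 8 were at 0 in the untreated and 5 in the MC903-treated group. The nuclear long RNAs Malat1 and Neat1 rose there too, from sums of 57.8 to 83.7 to sums of 211 to 263. In skin labelled knockout, where both rRNAs rose as well, the untailed RNAs summed to 1.57 to 5.25 untreated and 1.13 to 4.73 after MC903. There 6 of the 8 were at 0 in each group, and neither of the tested genes passed. Malat1 and Neat1 summed there to 55.8 to 74.3 and 45.3 to 57.8, and Neat1 fell. Their part in the rRNA results was not tested.

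In untreated skin both rRNAs were lower in libraries labelled knockout, mt-Rnr1 1.78-fold (log2 fold change of -0.83 ± 0.19 SE, limma adjusted p = 0.019) and mt-Rnr2 1.69-fold (log2 fold change of -0.75 ± 0.21 SE, limma adjusted p = 0.043). Neither passed when only untreated libraries were fitted (limma adjusted p = 0.062 and 0.067) or with no filter (0.063 and 0.12). mt-Rnr1 no longer passed without wild type untreated replicate 1 or 2 or knockout-labelled untreated replicate 1 or 2 (limma adjusted p = 0.052, 0.064, 0.08 and 0.057), and mt-Rnr2 did not pass without any single library except wild type untreated replicate 3 and the 3 wild type MC903 libraries (0.055 to 0.15). After MC903 mt-Rnr2 was 1.69-fold higher in skin labelled knockout (log2 fold change of 0.80 ± 0.21 SE, limma adjusted p = 0.0085) and mt-Rnr1 had a log2 fold change of -0.03 ± 0.19 SE, limma adjusted p = 0.92.

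Ratios within a library do not depend on how libraries were scaled to each other, and they show only that genes changed unequally. For every 100 FPKM of protein genes the rRNAs had 2.26, 2.33 and 2.41 FPKM in untreated and 10.6, 9.25 and 13.8 in MC903-treated wild type skin. In skin labelled knockout they had 2.21, 2.89 and 3.07 untreated and 11.8, 12.7 and 11.5 after MC903. The treated libraries of both genotypes thus lay well above all untreated ones, and the genotypes overlapped at each treatment. The ratio of mt-Rnr2 to mt-Rnr1 was 0.912 ± 0.0936 (SD, n = 3) in untreated and 0.967 ± 0.0730 in MC903-treated wild type skin, and 0.955 ± 0.0219 in untreated skin labelled knockout. It was 1.72 ± 0.0572 in skin labelled knockout after MC903, where each library lay above each of the other 9.

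The protein genes did not change in proportion either. The share of mt-Nd1 in the summed FPKM of protein genes was 17.3% ± 0.603 and 17.5% ± 0.557 in untreated wild type and knockout-labelled skin and 23.0% ± 0.692 and 22.3% ± 1.22 after MC903. That of mt-Nd5 was 6.94% ± 0.0670 untreated and 4.59% ± 0.274 after MC903 in wild type skin, and 6.88% ± 0.121 and 6.34% ± 0.0865 in skin labelled knockout. In the following pairs, picked after the values were seen, mt-Nd6 over mt-Nd5, which lie on opposite strands and overlap at their ends, was 1.10 ± 0.0584 in untreated and 1.82 ± 0.169 in MC903-treated wild type skin. It was 1.05 ± 0.133 and 1.02 ± 0.0353 in skin labelled knockout. mt-Nd1 over mt-Co1 was 0.5499 ± 0.0194 and 0.794 ± 0.0528 in wild type skin, and 0.513 ± 0.0109 and 0.688 ± 0.0488 in skin labelled knockout. mt-Nd5 over mt-Nd4 was 0.997 ± 0.00874 and 0.691 ± 0.0547 in wild type skin, and 1.10 ± 0.141 and 1.06 ± 0.0122 in skin labelled knockout. These are descriptions without a test.

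**Figure D4:**
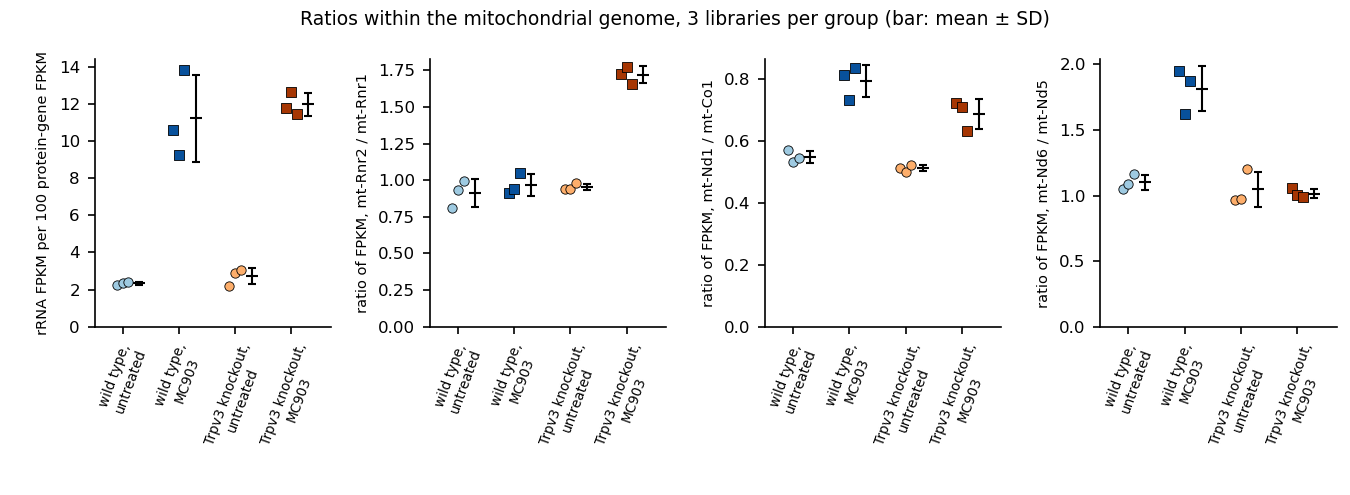
Ratios of FPKM within each library in 4 groups of 3, with the mean ± SD beside the points. From left to right, the rRNAs per 100 FPKM of protein genes are higher after MC903 in both genotypes, mt-Rnr2 over mt-Rnr1 stands apart in knockout-labelled skin after MC903 (1.72 against 0.912 to 0.967), mt-Nd1 over mt-Co1 is higher after MC903 in both, and mt-Nd6 over mt-Nd5 stands apart in wild type skin after MC903 (1.82 against 1.02 to 1.10).

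Of the 22 tRNA genes 18 had at least 0.5 FPKM in 3 libraries or more and were tested. mt-Tf, mt-Ts1 and mt-Tk were at 0 in all 12 libraries, which allows at most 2.84 FPKM (3 reads, counting error only), and mt-Td had 1 read in 1 library. mt-Tv, between the rRNA genes, was at 0 in all 6 untreated libraries and passed the filter through 3 MC903 libraries of 2 to 7 reads, so nothing is read from it. Levels differed widely, from mt-Tp with a mean of 482 FPKM, mt-Tc with 229, mt-Te with 98.8, mt-Tl1 with 76.0 and mt-Tn with 66.1 down to mt-Tq with 0.893 and mt-Tv with 0.741. Of the 5 highest, mt-Tl1 lies on the plus strand and the others are among the 8 tRNA genes of the minus strand.

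mt-Tp (ENSMUSG00000064372, MT 15356 to 15422), the last gene before the control region, read 606, 729.7 and 276 in untreated wild type skin, 452, 373 and 508 in wild type skin after MC903, 332, 387 and 259 in untreated skin labelled knockout and 578, 658 and 629.8 in skin labelled knockout after MC903. Replicate 3 of the untreated wild type group lay far below the other replicates. mt-Tc (MT 5192 to 5257) read 365, 329 and 222 in untreated wild type skin, 147, 122 and 189 in wild type skin after MC903, 210.1, 143 and 175 in untreated skin labelled knockout and 219.6, 280.0 and 346 in skin labelled knockout after MC903. mt-Te (MT 14071 to 14139), which adjoins mt-Nd6 on the same strand, read 125, 226 and 169.8 in untreated wild type skin, 69.3, 69.5 and 57.8 in wild type skin after MC903, 102, 94.2 and 69.2 in untreated skin labelled knockout and 58.3, 77.0 and 67.3 in skin labelled knockout after MC903. mt-Tc was low in wild type skin after MC903 and in untreated skin labelled knockout, and mt-Te was highest in untreated wild type skin. mt-Tl1 (MT 2676 to 2750), which lies between mt-Rnr2 and mt-Nd1, read 56.9, 77.3 and 39.7 in untreated wild type skin, 63.8, 72.2 and 94.5 in wild type skin after MC903, 38.9, 25.2 and 25.1 in untreated skin labelled knockout and 133, 195 and 90.8 in skin labelled knockout after MC903. mt-Tn (MT 5089 to 5159) read 92.7, 119 and 47.1 in untreated wild type skin, 71.6, 47.6 and 63.8 in wild type skin after MC903, 25.9, 44.3 and 37.8 in untreated skin labelled knockout and 70.6, 62.3 and 109.6 in skin labelled knockout after MC903. mt-Tl1 had its highest mean in skin labelled knockout after MC903, as did mt-Rnr2 beside it, though 1 wild type MC903 library (94.5) lay above the lowest of that group (90.8).

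Under MC903 in wild type skin 4 of the 22 tRNA genes, 18 of them tested, fell and 1 rose, both below the shares of all genes tested (30.3% lower and 32.6% higher). mt-Te was 2.65-fold lower (log2 fold change of -1.36 ± 0.21 SE, limma adjusted p = 0.00016), mt-Tc 2.002-fold (log2 fold change of -0.99 ± 0.24 SE, limma adjusted p = 0.0035) and mt-Ty, for tyrosine, 1.81-fold (log2 fold change of -0.88 ± 0.23 SE, limma adjusted p = 0.0051). mt-Tw, for tryptophan, had -1.23 (limma adjusted p = 0.044) with groups that overlapped, and no longer passed without any of 8 single libraries, down to -0.65 (limma adjusted p = 0.18) without wild type MC903 replicate 2. mt-Tg, for glycine, rose 1.64-fold (log2 fold change of 0.73 ± 0.26 SE, limma adjusted p = 0.029), with adjusted p of 0.12, 0.073 and 0.099 without wild type untreated replicate 2 and wild type MC903 replicates 1 and 3. Scaling ended the mt-Tg call as well, with 0.27, limma adjusted p = 0.35 on TPM, 0.52, limma adjusted p = 0.089 by total reads and 0.14, limma adjusted p = 0.62 by the genes outside the mitochondrial genome. It also missed the threshold under library weights (0.38, limma adjusted p = 0.19), under voom on the recovered reads (0.058) and with no filter (0.058). mt-Tw did with no filter or when only the wild type libraries were fitted (0.087 in both). mt-Tp did not pass (-0.17), though without untreated wild type replicate 3 it read -0.59, limma adjusted p = 0.016. The same library decided mt-Tn, with -0.42 on all libraries and -0.80, limma adjusted p = 0.028 without it. On TPM and by the genes outside the mitochondrial genome, mt-Tn, mt-Ts2, mt-Tl2, mt-Tr and mt-Th passed as lower in addition (-0.69 to -1.32, limma adjusted p = 0.0057 to 0.048).

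In skin labelled knockout MC903 went with 6 higher tRNA genes of 22 (18 tested) and 1 lower, where 25% of all genes tested were higher and 23% lower. mt-Tl1 was 4.70-fold higher (log2 fold change of 2.18 ± 0.30 SE, limma adjusted p = 0.00019), mt-Tn 2.25-fold (log2 fold change of 1.15 ± 0.33 SE, limma adjusted p = 0.015) and mt-Tp 1.91-fold (log2 fold change of 0.95 ± 0.30 SE, limma adjusted p = 0.023). mt-Tc had 0.67 and mt-Ty 0.73 (limma adjusted p = 0.037 and 0.02). mt-Ti, for isoleucine, which adjoins mt-Nd1, read 0, 0.760 and 2.33 untreated and 4.79, 12.8 and 4.70 after MC903, from 0 to 16 reads (log2 fold change of 2.56 ± 0.58 SE, limma adjusted p = 0.0041). mt-Th, for histidine, fell 2.30-fold (log2 fold change of -1.12 ± 0.29 SE, limma adjusted p = 0.0076). Of these, mt-Tl1, mt-Ti and mt-Th held without any single library. mt-Tp did not without knockout-labelled untreated replicate 1 or 3 or MC903 replicate 2 or 3 (limma adjusted p = 0.051, 0.086, 0.067 and 0.055), mt-Tn without untreated replicate 1 or MC903 replicate 3 (0.064 and 0.062). The same was true of mt-Tc without untreated replicate 2 or 3 or MC903 replicate 2 or 3 (0.13, 0.078, 0.085 and 0.13) and of mt-Ty without untreated replicate 2 or MC903 replicate 1 or 2 (0.082, 0.072 and 0.069). Scaled to TPM or by the genes outside the mitochondrial genome, mt-Tp (limma adjusted p = 0.066 and 0.072), mt-Tc (0.11 in both) and mt-Ty (0.058 and 0.055) no longer passed. mt-Tc did not by total reads either (0.061), and with no filter neither mt-Tp (0.057) nor mt-Tc (0.078) passed.

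Between genotypes 2 tRNA genes of 22 (18 tested) were lower in untreated skin labelled knockout and none was higher, where 4.55% of all genes tested were lower. mt-Te was 1.97-fold lower (log2 fold change of -0.95 ± 0.21 SE, limma adjusted p = 0.016; limma adjusted p = 0.059 without knockout-labelled replicate 3). mt-Tn was 2.40-fold lower (log2 fold change of -1.18 ± 0.33 SE, limma adjusted p = 0.044), a call that ended on leaving out any single library except wild type untreated replicate 3 and knockout-labelled MC903 replicate 3 (0.05 to 0.15). When only the untreated libraries were fitted neither passed (0.09 and 0.12), and mt-Tn did not on TPM (0.051) or with no filter (0.092). Without wild type untreated replicate 3, mt-Tp passed as lower (-1.05, limma adjusted p = 0.0048), as did mt-Tc (-0.99, limma adjusted p = 0.015), mt-Tl1 (-1.18, limma adjusted p = 0.025) and mt-Tr (-1.77, limma adjusted p = 0.018), the arginine tRNA gene.

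After MC903 3 tRNA genes of 22 (18 tested) were higher and 2 lower in skin labelled knockout, both below the shares of all genes tested (25.9% and 26.1%). mt-Ty was 1.99-fold higher (log2 fold change of 0.999 ± 0.23 SE, limma adjusted p = 0.0034) and mt-Tc 1.85-fold (log2 fold change of 0.88 ± 0.24 SE, limma adjusted p = 0.0091), while mt-Tl1 passed narrowly (log2 fold change of 0.81 ± 0.30 SE, limma adjusted p = 0.044) with groups that overlapped. mt-Tg was 2.43-fold lower (log2 fold change of -1.24 ± 0.26 SE, limma adjusted p = 0.0023) and mt-Th 2.25-fold (log2 fold change of -1.02 ± 0.29 SE, limma adjusted p = 0.011). The mt-Tl1 call ended without any of 7 single libraries, with 0.53, limma adjusted p = 0.17 without knockout-labelled MC903 replicate 2. It also ended with no filter (0.087) or when only the MC903 libraries were fitted (0.053), and that of mt-Th under voom (0.072). In the test of the difference between the responses, 5 of 22 tRNA genes were higher in skin labelled knockout and 1 lower, against 20% and 19.7% of all genes tested. The higher ones were mt-Tc (1.66), mt-Ty (1.61), mt-Tl1 (1.74), mt-Tn (1.56) and mt-Te (0.99). mt-Te missed the threshold without knockout-labelled MC903 replicate 2 (limma adjusted p = 0.051) or under library weights (0.08), and mt-Tn without wild type MC903 replicate 2, knockout-labelled untreated replicate 1 or knockout-labelled MC903 replicate 3 (0.051, 0.056 and 0.054). mt-Tg was lower (log2 fold change of -1.37 ± 0.37 SE, limma adjusted p = 0.013). mt-Tp reached a limma adjusted p of 0.057 and, without wild type untreated replicate 3, 1.54, limma adjusted p = 0.00077.

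**Figure D5:**
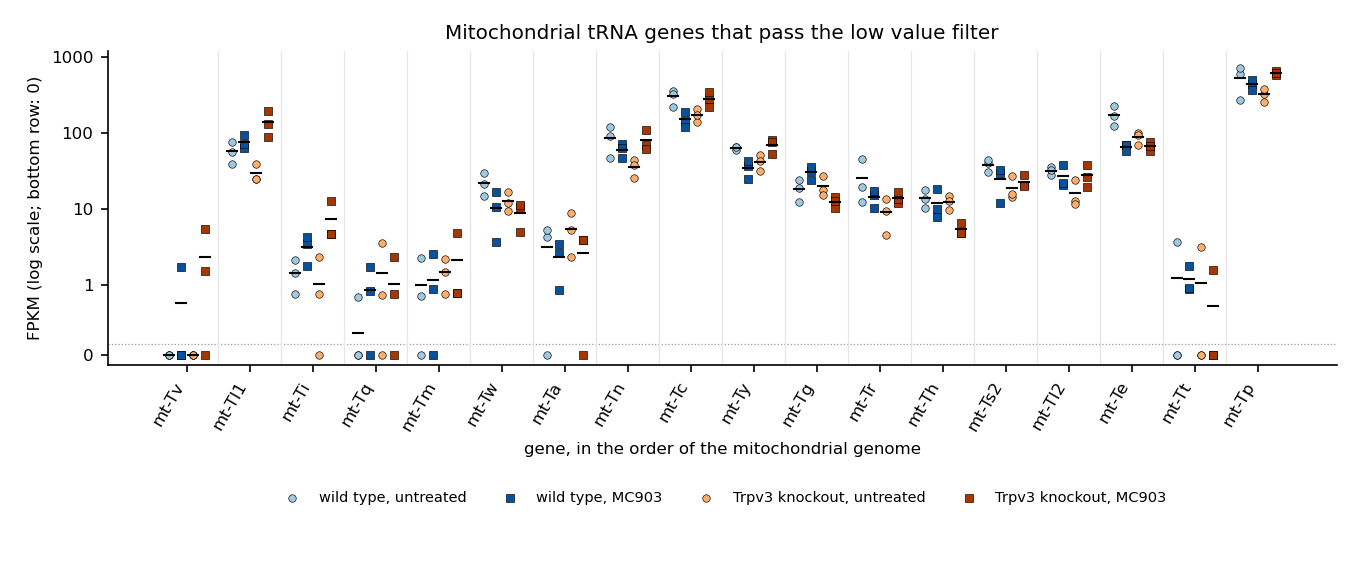
FPKM (vertical axis, log scale, with values of 0 in a row of their own at the bottom) of the 18 tRNA genes tested, in the order of the mitochondrial genome, with 1 symbol per library and a bar at the mean of 3. mt-Tp, mt-Tc and mt-Te are the highest, mt-Tl1 and mt-Ti have their highest means in knockout-labelled skin after MC903, and mt-Tv is at 0 in the 6 untreated libraries.

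Markers of other cell types moved with the mitochondrial protein genes in part of the comparisons. Skeletal muscle, which lies under the skin and is rich in mitochondria, was read by its contractile genes and white fat by adipocyte genes. Of 20 skeletal muscle markers 19 were tested, and Tnnc2 was at 0 throughout. Of these 10 fell under MC903 in wild type skin (30.3% of all genes tested), 7 were lower in untreated skin labelled knockout (4.55%), and in skin labelled knockout 16 fell (23%) and 1 rose under MC903. Between genotypes after MC903, 16 muscle markers were lower in skin labelled knockout (26.1%) and none was higher. Their summed FPKM was 3566 to 6818 in untreated and 2426 to 3291 in MC903-treated wild type skin, and 2574 to 3426 and 821 to 1253 in skin labelled knockout. Of 10 white adipocyte markers, none at 0 in any group, 9 fell in wild type skin under MC903, 9 were lower in untreated skin labelled knockout and 8 fell there under MC903, against the same shares of all genes tested. Their summed FPKM was 1134 to 2176, 504 to 636, 836 to 932 and 340 to 496 in the same order. All 8 fibroblast, all 6 Schwann cell and 5 of 6 endothelial markers also fell in wild type skin under MC903 (30.3% of all genes tested). In untreated skin labelled knockout 6 of 8 fibroblast markers were higher (7.15%) and none was lower. Of the Schwann cell and endothelial markers 1 each was lower there (4.55%) and none was higher. The part of all these cells in the protein gene results was not tested. In skin labelled knockout the muscle and adipocyte lists went down under MC903 while none of 13 protein genes fell. The untreated wild type library with the highest muscle and adipocyte sums, replicate 3 (6818 and 2176), had the lowest share of mitochondrial protein genes (9.57%). This is a single library, and a share also falls when other RNAs rise, so nothing is read from it. Of 6 brown adipocyte markers 4 were tested. Under MC903 3 fell and 1 rose in wild type skin, and 2 fell and 1 rose in skin labelled knockout. In untreated skin labelled knockout 1 was lower and 1 higher. The summed FPKM of the 6 was 210 to 251, 115 to 135, 166 to 196 and 90.1 to 94.6 in the same order. Elovl3 among them was also listed as a sebaceous gland marker. Ucp1, which defines brown fat, was at or near 0 (means of 0.0102 to 0.134 FPKM). The part of brown fat was not tested.

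Red blood cells, which carry no mitochondria when mature, moved as well. All 5 markers fell under MC903 in wild type skin (30.3% of all genes tested), and all 5 were higher in skin labelled knockout after MC903 (25.9%), with sums of 535 to 1453 and 235 to 571 FPKM in wild type and 405 to 745 and 700 to 1189 in knockout-labelled skin. Of 8 basal keratinocyte markers 6 rose (32.6%) and 1 fell in wild type skin under MC903 and all 8 were lower in skin labelled knockout after MC903 (26.1%), with sums of 1742 to 2033, 12375 to 17318, 2024 to 2313 and 3495 to 4885 in the order used above. In skin labelled knockout 3 rose (25%) and 3 fell (23%) under MC903. Of 8 suprabasal markers 5 rose and 1 fell under MC903 in wild type skin, and 1 rose and 4 fell in skin labelled knockout. Between genotypes 4 were higher in untreated skin labelled knockout (7.15%) and none was lower. After MC903 5 were lower there and none was higher. All 6 neutrophil markers were above 0 in both MC903 groups, with sums of 995 to 1220 in wild type and 2071 to 2728 in knockout-labelled skin. The untreated sums were 8.39 to 29.8 and 24.9 to 187. All 5 tested rose under MC903 in wild type (32.6% of all genes tested) and in knockout-labelled skin (25%). In skin labelled knockout 3 of the 5 were higher untreated (7.15%) and 3 after MC903 (25.9%), and none was lower. The part of these cells in the mitochondrial levels was not tested either.

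The nuclear genome encodes the proteins that copy mitochondrial DNA into RNA. The counts of nuclear genes that follow stand against the shares of all genes tested. These were 32.6% higher and 30.3% lower under MC903 in wild type and 25% and 23% in knockout-labelled skin. Between genotypes, with skin labelled knockout set against wild type, they were 7.15% and 4.55% untreated and 25.9% and 26.1% after MC903. These counts and log2 fold changes hold for the deposited scaling. Scaled to TPM or by genes outside the mitochondrial genome, the median of all genes moved by -0.38 and -0.49 under MC903 in wild type skin. Between genotypes after MC903 it moved by 0.23 and 0.27. Changes of a size near these shifts depend on the scaling. Of 19 genes of mitochondrial transcription and replication 6 rose and 3 fell under MC903 in wild type skin, near or below the share of all genes, with a median log2 fold change of 0.20. Polrmt, the RNA polymerase of mitochondria, rose there from 4.68 ± 0.412 to 6.62 ± 0.822 FPKM (log2 fold change of 0.45 ± 0.10 SE, limma adjusted p = 0.0027), and Mterf2, a member of the termination factor family, fell (-1.22, limma adjusted p = 2.3e-05). Tfam, which packs mitochondrial DNA and starts its transcription, read 9.19 ± 0.159 and 8.17 ± 0.285 in wild type skin (-0.16 ± 0.08 SE, limma adjusted p = 0.1). In untreated skin labelled knockout Tfam was lower (7.39 ± 0.709, -0.30 ± 0.08 SE, limma adjusted p = 0.035), as was Tfb2m, which opens the promoter (-0.51, limma adjusted p = 0.0049), among 4 lower and 1 higher of 19. Under MC903 4 rose and 3 fell in skin labelled knockout, Tfb2m (0.34, limma adjusted p = 0.0057) among the former. After MC903 9 of 19 were lower in skin labelled knockout and none was higher, Polrmt (-0.40, limma adjusted p = 0.0076) and the helicase Twnk (-0.71, limma adjusted p = 0.00015) among them.

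Other nuclear genes process, modify or degrade mitochondrial RNA. Of 33 tested of 35, 17 rose and 4 fell under MC903 in wild type skin and 15 rose and 3 fell in skin labelled knockout. Elac2, which cuts tRNA ends, rose in wild type (0.98, limma adjusted p = 2.1e-05) and in knockout-labelled skin (0.52, limma adjusted p = 0.003). Trmt10c, a subunit of mitochondrial RNase P, rose in skin labelled knockout (0.64, limma adjusted p = 0.00029) and responded more there than in wild type skin (difference 0.86, limma adjusted p = 0.00077). Lrpprc, which holds mitochondrial mRNAs stable, read 6.64 ± 0.772 and 7.96 ± 0.165 in wild type skin and 5.03 ± 0.235 and 6.55 ± 0.546 in skin labelled knockout. It rose under MC903 in both (0.25 and 0.35, limma adjusted p = 0.036 and 0.01) and was lower in untreated skin labelled knockout (-0.36, limma adjusted p = 0.03). In that untreated comparison 3 genes of the list were lower and 1 was higher. After MC903 13 were lower and 2 higher in skin labelled knockout.

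Regulators of mitochondrial biogenesis passed the test in both directions. Ppargc1a, a coactivator that raises mitochondrial content, was at 2.09 ± 0.271 FPKM in untreated wild type skin and fell under MC903 in wild type (-1.05, limma adjusted p = 0.0004) and in knockout-labelled skin (-0.69, limma adjusted p = 0.0092), and was lower in untreated skin labelled knockout (-0.65, limma adjusted p = 0.043). Esrra, a nuclear receptor for the same programme, rose in wild type skin from 14.4 ± 5.24 to 33.5 ± 3.997 (1.24, limma adjusted p = 0.00019), while Ppara fell (-1.86, limma adjusted p = 1.2e-06). Of 9 tested of 10, 4 rose and 3 fell in wild type skin under MC903, and 3 rose and 2 fell in skin labelled knockout.

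Most subunits of the respiratory complexes are nuclear. Of 36 nuclear subunits of complex I 8 rose and 2 fell under MC903 in wild type skin, both below the share of all genes, where 6 of the 7 complex I genes of the mitochondrial genome fell and mt-Nd3 did not pass. Of the 9 of complex III 7 rose and 1 fell, of the 16 of complex IV 6 rose and 2 fell, and of 15 tested of complex V 7 rose and none fell. The median log2 fold changes were 0.18, 0.41, 0.25 and 0.39 for complexes I, III, IV and V. Scaling to TPM or by genes outside the mitochondrial genome moved the median of all genes there by -0.38 and -0.49. These rises therefore depend on the scaling. Under MC903 in skin labelled knockout none of the 36 of complex I rose and 4 fell, and none of the 9 of complex III passed. Of complex IV 3 rose and 5 fell, and of complex V 1 rose and none fell. After MC903 27 of 36, 8 of 9, 12 of 16 and 15 of 15 were lower in skin labelled knockout and 1 in all, of complex IV, was higher. In untreated skin 6, 1, 1 and 1 of them were lower in skin labelled knockout and none was higher. Of the 4 nuclear subunits of complex II 1 rose and 3 fell under MC903 in wild type skin, and 1 fell in skin labelled knockout. Of 17 genes of the citric acid (TCA) cycle and mitochondrial membrane 6 rose and 7 fell in wild type skin. In skin labelled knockout 4 of the 17 rose and 3 fell. Of 77 tested proteins of the mitochondrial ribosome, the partner of the rRNAs, 57 rose and 2 fell under MC903 in wild type skin, with a median of 0.47. That median is also of the size of the scaling shifts. In skin labelled knockout 26 rose and none fell, with a median of 0.17. Between genotypes 46 were lower after MC903 and none was higher in skin labelled knockout. All 16 genes of the mitochondrial stress response rose under MC903 in wild type skin and 13 did in skin labelled knockout, with Atf4, the transcription factor of that response, at 1.25 and 0.73 (limma adjusted p = 8.7e-07 and 0.00012).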

How the data were processed

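Poly-A RNA of 12 mouse skin libraries was read as a table of FPKM values that the authors deposited. The submitters' processing notes name featureCounts and mm10, and per the labels' protocols mRNA was taken on poly-T beads and fragments of 370 to 420 bp were selected. Aligner, strand setting and treatment of reads with several matches are not stated in the sources used here. FPKM times gene length gave whole reads (within 0.01) for the values, and the deposited values were already scaled between libraries. Of the 15 samples of the series, 3 of dorsal root ganglion were left out, as they belong to no group of skin.

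From the deposited FPKM, log2(FPKM + 0.5) was computed for the 17646 of 54532 genes with at least 0.5 FPKM in at least 3 libraries. Fold changes on this scale understate those of low genes. limma 3.58.1 (R 4.3.3, empirical Bayes with trend, two-sided) was fitted to all 4 groups at once, with Benjamini-Hochberg adjustment over all genes tested and a threshold of 0.05. Sequences were compared with blastn 2.17.0 and tables made with Python 3.11.15, and the fit was tested on simulated data. The 37 genes and all gene lists were chosen with earlier results of these data known. The protein genes and rRNAs are all named, the tRNAs that passed the filter or are among the 5 highest may be, and of each list up to 4 of the highest genes or, for transcription, RNA processing and biogenesis, the strongest calls. Alternatives changed the pseudocount, filter, scaling, model, weights, replicate block and libraries. Counting error is the only error that the limit for tRNA genes at 0 covers.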

Additional observations from a re-analysis of the deposited data

Results flagged for a closer look

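In 18 of the 33 mitochondrial genes tested the response to MC903 differed between the genotypes by the limma test of the difference itself, where 39.7% of all genes tested did so. Each value is the log2 response of skin labelled knockout minus that of wild type skin. It is built from the same libraries as the comparisons of groups above and is not independent of them. Among the protein genes it was 1.37 in mt-Co1, 0.76 in mt-Co2, 2.25 in mt-Co3, 1.26 in mt-Cytb, 1.26 in mt-Nd1, 1.497 in mt-Nd2, 1.32 in mt-Nd4, 1.13 in mt-Nd4l, 1.81 in mt-Nd5 and 1.05 in mt-Nd6. For the rRNAs it was 0.80 in mt-Rnr1 and 1.56 in mt-Rnr2. Among the tRNA genes it was 1.66 in mt-Tc, 0.99 in mt-Te, 1.74 in mt-Tl1, 1.56 in mt-Tn and 1.61 in mt-Ty. mt-Tg went the other way, with -1.37. The value for mt-Co3 rests in part on replicate 2 of the knockout-labelled MC903 group, without which it was 1.53, limma adjusted p = 0.00067.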

How the results depend on the processing

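Of 1850 values of single protein genes and rRNAs under alternatives, 1715 kept direction and side of the threshold, 100 fell below it, 33 passed it and 2 reversed. Of 2127 values of tRNA genes, 1971 were kept, 74 fell below and 82 passed. Of 3948 list counts, 3462 stayed within 1.5 times. The 2 reversals were mt-Co2 between genotypes after MC903, at 0.029 scaled to TPM and 0.071 scaled by genes outside the mitochondrial genome. Protein genes passing under MC903 in skin labelled knockout numbered 3, with 1 under no filter on low values and 0 under either of those scalings. Between genotypes in untreated skin they numbered 9, with 1 under no filter and 3 when only the groups compared were fitted. Between genotypes after MC903 they numbered 3, with 7 scaled to TPM and 8 by genes outside the mitochondrial genome. For the difference of responses they numbered 10, with 6 under no filter. Over all genes, 2064 passed between genotypes in untreated skin, with 6548 under library weights and 613 when only the groups compared were fitted. The cause was not tested, apart from the fewer libraries of the last fit. As shares of reads in place of FPKM, the protein genes took 5.16%, 2.03%, 2.48% and 2.80% in untreated and MC903-treated wild type and untreated and MC903-treated knockout-labelled skin. The rRNAs took 0.122%, 0.244%, 0.0678% and 0.367%, and the tRNA genes 0.0103%, 0.00616%, 0.00570% and 0.00937%.

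Leaving out each library, the protein genes passing numbered 9 to 10 under MC903 in wild type and 0 to 3 in knockout-labelled skin, 6 to 10 between genotypes untreated, 1 to 4 between them after MC903 and 10 to 11 for the difference. Over all genes the ranges were 10071 to 11186, 6726 to 9285, 714 to 3561, 7789 to 9972 and 5737 to 8000. The third fell to 1156, 811, 714 and 1156 without wild type untreated replicate 2 and knockout-labelled untreated replicates 1, 2 and 3, and rose to 3561 without wild type untreated replicate 3. The share of passing genes that were higher was 51.8%, 52.1%, 61.1%, 49.8% and 50.3% in the 5 comparisons. It was 26.7%, 33.6%, 65.8%, 73.5% and 71.7% scaled to TPM, 40%, 45.2%, 49.7%, 57.4% and 61.9% by total reads, and 21.6%, 34.6%, 43.7%, 76% and 79.4% by genes outside the mitochondrial genome. These scalings moved the median log2 fold change of all genes by -0.38, -0.16, 0.01, 0.23 and 0.23, by -0.17, -0.06, -0.04, 0.07 and 0.12, and by -0.49, -0.15, -0.08, 0.27 and 0.35. With the replicate block 7 of 165 calls on mitochondrial genes changed, all in tRNA genes, the protein genes passing numbered 9, 3, 9, 3 and 10, and over all genes 11176, 8471, 2124, 9304 and 7046 passed. mt-Tc under MC903 in skin labelled knockout (limma adjusted p = 0.051) and mt-Tn between genotypes in untreated skin (0.067) were the calls lost under the block. Same-numbered libraries correlated at -0.13 to 0.17, with 3 of 18 pairs above 0.1. In 7 of 18 the best match in the other group had the same number. Every untreated knockout-labelled library, set against the knockout-labelled MC903 group, was among them. Pairing was left out of the main fit, and these values cannot show whether equal numbers stand for a shared batch or animal. Precision is limited by 3 libraries a group and, for mt-Atp8 and the low tRNA genes, by a few reads per library.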

Other observations

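Among 8454 nuclear genes with a mean of at least 5 FPKM, the profiles over the 12 libraries most like the mean log2 level of the 13 mitochondrial protein genes, by Pearson's r, were those of Ccdc47 (0.972), Gm10925 (0.938), St13 (0.936), Pdhx (0.916) and Lep (0.916). Next came Ociad1 (0.904), E2f6 (0.897), Dld (0.895), Ppp3cb (0.8804) and Prune1 (0.878). Gm10925 is the chromosome 1 copy of mt-Atp6. The 12 libraries fall into 4 groups and share their scaling with the protein genes, so these values are a description.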
